A study of Mus musculus with 3 samples.

Results

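The genes described here were 10 textbook targets of the tumour suppressor p53 in the mouse: Cdkn1a, Gadd45a, Ccng1, Sfn, Sesn2, Mdm2, Bax, Bbc3, Pmaip1 and Perp. A peak was counted for one of them when that gene owned the protein-coding gene end nearest to the peak centre, or when the centre lay within 1 kb of either of its ends. By this rule the 10 genes, of 21887 protein-coding genes, held 37 of 57936 HDAC3 peaks and 52 of 47155 KLF4 peaks. The assignment rule uses positions alone, and no score, to choose peaks.

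The samples were back epidermis of wild-type mice, taken from embryos at E18.5, shortly before birth, for chromatin immunoprecipitation and sequencing. One library came from an HDAC3 precipitation (antibody Abcam ab7030), one from a KLF4 precipitation (R&D AF3158), and one was input chromatin with no antibody. No mutant and no stress treatment was among these samples, so the peaks describe unchallenged wild-type skin. HDAC3 is the histone deacetylase of the NCoR and SMRT corepressors, and KLF4 is a transcription factor that keratinocytes need to build the skin barrier.

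Sequencing had given 56787485 HDAC3 tags and 61432711 KLF4 tags. The score of a peak is the tag-based value that the authors' peak caller gave it. It differs from the deposited tag signal of the peak, and it is used only within its own list. The whole HDAC3 list ran from 16 to 245 with a median of 22, and the whole KLF4 list ran from 19 to 824 with a median of 65. Each antibody had 1 library and so no replicates, for which reason no difference was tested; every interval is exact, at 95%, for counting error only. In whole tissue, a site occupied in fewer cells and a site occupied less often in each cell cannot be told apart. Of 12 keratinocyte markers, 7 (58.3%) had HDAC3 and 8 (66.7%) had KLF4 within 1 kb of a gene end, but Krt5, Krt14 and Krt15 had none. Of 24 markers of other skin and non-skin cell types the numbers were 6 (25%) and 5 (20.8%), near the shares of all protein-coding genes, 18.9% and 23.1%.

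p53 is held at a low level by the ubiquitin ligase MDM2 and accumulates when DNA is damaged or cells are stressed. It then binds response elements near its targets, which stop the cell cycle, restrain growth signalling, start apoptosis or switch p53 off again. In the epidermis its relative p63 reads closely similar sites and maintains the stratified layers, and several genes of this set, Perp and Sfn among them, are known p63 targets as well.

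At the ends of the 10 genes KLF4 peaks were common and HDAC3 peaks were not. KLF4 peaks were centred within 1 kb of either end at 7 genes (Cdkn1a, Gadd45a, Ccng1, Sfn, Sesn2, Bax and Pmaip1), which is 70%, beside 23.1% of all protein-coding genes. HDAC3 peaks were centred there at Ccng1 and Sesn2 alone, which is 20%, near the 18.9% of all protein-coding genes. Those 2 genes also carried KLF4, beside 10.3% of all genes with both. The 3 genes with neither were Mdm2, Bbc3 and Perp.

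Farther out, most genes of the set had peaks of both factors. All 10 genes were the nearest gene of at least 1 KLF4 peak, beside 59.2% of all genes, and 8 of 10 were the nearest gene of at least 1 HDAC3 peak, beside 64.8%. Those 8 genes had both, beside 49.8% of all genes. Bax and Bbc3 had no HDAC3 peak. Peak numbers were uneven, from 0 to 10 for HDAC3 and from 1 to 14 for KLF4. Perp, Gadd45a and Pmaip1 together held most of the peaks, with stretches of chromosome closest to them of 113 kb, 124 kb and 286 kb. Ccng1 had the longest stretch, of 588 kb, with only 5 HDAC3 peaks and 1 KLF4 peak. Between the ends of the genes lay 2 of the 37 HDAC3 peaks and 11 of the 52 KLF4 peaks, and the others lay outside. The same shares were not counted over the whole lists, so these numbers cannot be called particular to the set.

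**Figure D1:**
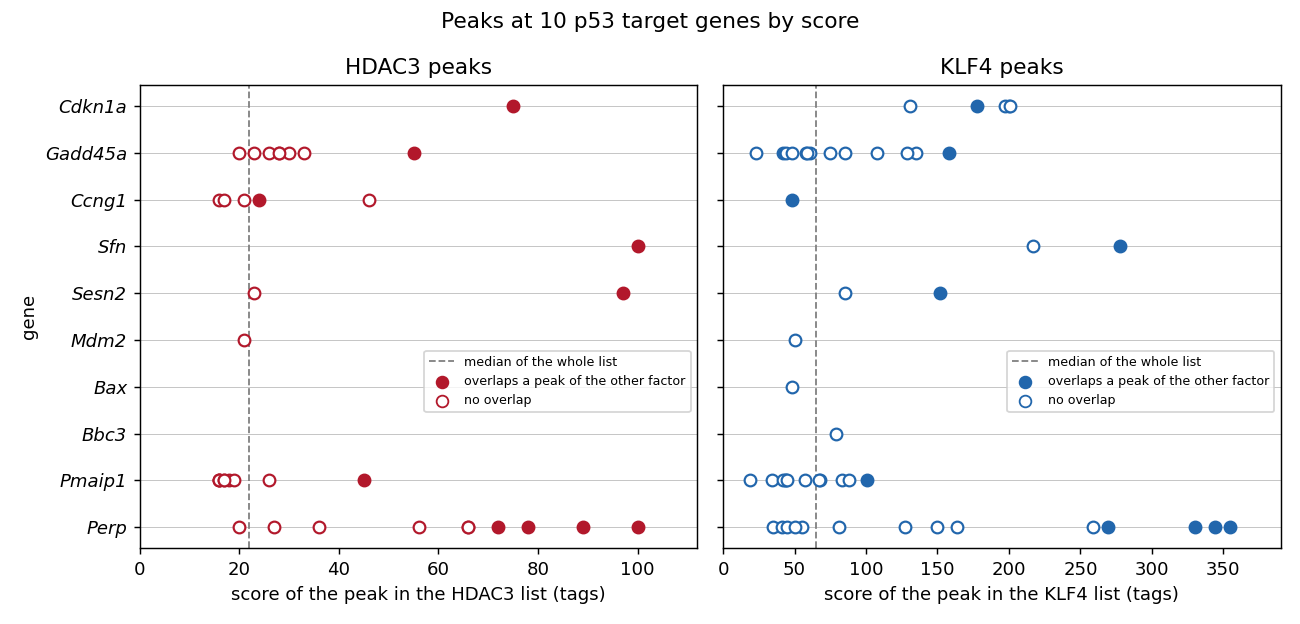
Each point is 1 peak, placed by its gene (rows) and its score in tags (horizontal axis, linear), with HDAC3 on the left and KLF4 on the right. Filled points overlap a peak of the other factor, open points do not, and the dashed line is the median of the whole list (22 for HDAC3, 65 for KLF4). Filled points stand at or near the high end of the row at most genes, while all but 1 of the KLF4 points at Cdkn1a are open although they score 131 to 201.

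Sites shared by the factors had higher median scores than the others, with much overlap in range. A pair of peaks was shared when the 185 bp peaks overlapped, and 11 such pairs were found, at 7 genes, with centres 8 to 139 bp apart and a median of 20 bp (31 bp over all 14962 pairs). The 11 shared HDAC3 peaks had a median score of 75, and the 26 HDAC3 peaks without KLF4 a median of 22. Over the whole HDAC3 list these medians were 43 and 20. The 11 shared KLF4 peaks had a median score of 178, and the 41 KLF4 peaks without HDAC3 a median of 67, beside 93 and 56 over the whole list. Shared KLF4 peaks ran from 42 to 355 and the others from 19 to 259. Perp alone held 4 of the 11 pairs, with median scores of 83.5 for HDAC3 and 337 for KLF4.

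With peaks assigned to protein-coding genes, the share of sites in common differed from that of the whole lists by less than its counting error. Of the HDAC3 peaks of the set, 29.7% overlapped a KLF4 peak (interval 15.9% to 47.0%), against 25.8% of all HDAC3 peaks. Of its KLF4 peaks, 21.2% overlapped an HDAC3 peak (interval 11.1% to 34.7%), against 31.7% of all KLF4 peaks. The HDAC3 and KLF4 intervals each include the whole-list share. With noncoding genes allowed as the nearest gene, 16 HDAC3 peaks were left at these genes and 56.2% of them overlapped KLF4. This lies above the interval of 15.9% to 47.0%, so the HDAC3 result depends on the assignment. The 16 peaks are part of the set that gave that interval, and the change was not tested.

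Among the genes of cell cycle arrest, Cdkn1a encodes p21, the inhibitor of cyclin-dependent kinases through which p53 halts the cycle. It lies at chr17:29090979-29100722 on the plus strand and had 1 HDAC3 peak and 5 KLF4 peaks. The single HDAC3 peak scored 75 and lay 11976 bp upstream of the gene, 8 bp from a KLF4 peak of score 178. HDAC3 stood 8.32-fold and KLF4 14.3-fold over the input there, on 6 input tags (interval 2.20 to 13.1). This shared site was not at Cdkn1a itself: it fell inside the noncoding gene Trp53cor1 (lincRNA-p21), a p53 target next door, at 123 bp (HDAC3) and 131 bp (KLF4) from its Cdkn1a-facing end.

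At Cdkn1a itself the data showed KLF4 only. A KLF4 peak of score 131, 12.1-fold over input, was centred 48 bp upstream of the first annotated start. KLF4 peaks of scores 200, 197 and 201 followed inside the gene, the first of them 157 bp downstream of a second annotated start at 29093769. The nearest HDAC3 peak to any of these 4 sites was 11928 bp away, the one at Trp53cor1. All 4 stood only 5.34 to 5.92 times over the surrounding 10 kb, where the caller required 4 times.

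Over the whole list, most KLF4 peaks in the narrow score range of the 3 peaks inside Cdkn1a carried HDAC3. Of the 191 KLF4 peaks of the whole list with scores of 197 to 201, 132 overlapped an HDAC3 peak, which is 69.1% (interval 62.0% to 75.6%). The 3 peaks inside Cdkn1a were among the others. Their own scores set this range, and they are neighbours in a single gene, so the contrast was not tested. The KLF4 peak at the upstream Cdkn1a start scored lower and was left out. In the whole set, 9 of 21 KLF4 peaks scoring 100 or more overlapped HDAC3, against 52.8% of the 13183 such peaks in the list.

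The KLF4 peak at the upstream Cdkn1a start covered both a KLF box and sequence matches to p53 sites, and its 185 bases are shown for that reason. The sequence is from RefSeq, GRCm38.p6, chr17:29090839-29091023, plus strand, from base -140 to base +45 counted from the start. Capitals mark the matches: first a KLF box read on the other strand (-79 to -73) that shares 1 base with a p53 decamer (-73 to -64), then the p53 response element (-51 to -32).
Cdkn1a start: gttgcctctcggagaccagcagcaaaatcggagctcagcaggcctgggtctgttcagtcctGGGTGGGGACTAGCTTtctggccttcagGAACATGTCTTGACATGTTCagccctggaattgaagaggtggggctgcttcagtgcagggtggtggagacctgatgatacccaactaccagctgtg

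A further search covered the 300 bases, from 250 before to 50 after each annotated start, of 11 promoters of 8 genes, read on both strands. RefSeq promoters were matched for all genes but Pmaip1 and Perp. A p53 decamer, the unit of the p53 response element, was found in 5 of the 11 promoters (45.5%), beside 8.36% of all 32851 promoters. A full response element with at most 2 mismatches was found in 2 of the 11 (18.2%), beside 0.798%. These genes are known for their p53 sites, so the matches describe the set and are no measure of p53 binding, which was not assayed. Whether a match is the known site of its gene was not examined. A response element is a pair of adjoining decamers, and each match is given 5′ to 3′ in the direction of the gene, with a mismatch of a response element in lower case.
Cdkn1a decamer, chr17:29090906-29090915: GGACTAGCTT
Cdkn1a response element, chr17:29090928-29090947: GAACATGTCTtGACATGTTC
Ccng1 response element, chr11:40755462-40755481: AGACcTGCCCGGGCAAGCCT
Gadd45a decamer, chr6:67037438-67037447: GGGCTAGCCC
Mdm2 decamer, chr10:117710935-117710944: GAACTTGCCT
Bax decamer, chr7:45467090-45467099: AGGCAAGCTT

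Of the genes in these lines, Cdkn1a alone had its matches under a peak. The Ccng1 element at -195 to -176 and the decamers of Gadd45a, Mdm2 and Bax lay outside every peak of either factor. Only the promoter windows were searched. The peaks inside Mdm2 and Gadd45a lie beyond those windows, so whether they cover a p53 site was not tested. The KLF box CNCACCC was found in 3 of the 11 promoters (27.3%, at Cdkn1a and Bbc3), beside 30.9% of all promoters. The GC box CCCGCC was found in 7 (63.6%), beside 35.3%, with no base in common with a KLF box match; Bbc3 promoters 2 and 3 overlap each other. The AP-1 site TGANTCA and the TATA box TATAAA were in none of the 11, beside 7.81% and 13.6% of all promoters.

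Gadd45a, which encodes a stress sensor that binds PCNA and cyclin-dependent kinase 1, had peaks assigned to it at long range. The gene lies at chr6:67035096-67037407 on the minus strand and had 8 HDAC3 and 13 KLF4 peaks. Its only gene-end peak was a KLF4 peak of score 108, 11.5-fold over input, which lay 1848 bp downstream of the start, at the 3′ end of this short gene. The HDAC3 peaks scored 20 to 55 and the KLF4 peaks 23 to 158.

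The highest sites of both factors assigned to Gadd45a coincided. At 76.3 kb upstream, an HDAC3 peak of score 55 and a KLF4 peak of score 158 had centres 20 bp apart. A second pair, 21.1 kb upstream, scored 28 for HDAC3 and 42 for KLF4, with centres 139 bp apart, the widest of the set. The upstream peaks lay in the 230 kb between Gadd45a and the next protein-coding gene, Serbp1. Genes that are not protein-coding lie there too: the 76.3 kb pair was nearer to Gm29928, and the 21.1 kb pair lay inside E230016M11Rik. The link of these pairs to Gadd45a rests on distance alone.

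Ccng1, which encodes cyclin G1, a p53 target that acts with protein phosphatase 2A on MDM2, had a peak of each factor at its far end. The gene lies at chr11:40748552-40755309 on the minus strand. An HDAC3 peak of score 24 and a KLF4 peak of score 48 (medians of the lists 22 and 65) lay 828 and 852 bp beyond the 3′ end, 24 bp apart, and were 14.7-fold and 7.39-fold over inputs of 1 and 3 tags. Both lay more than 7 kb from the annotated start, where no peak was found. The other 4 HDAC3 peaks, of scores 16, 17, 21 and 46, were 258 to 529 kb away in a long gap without protein-coding genes, so their link to Ccng1 rests on distance alone.

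Sfn encodes 14-3-3 sigma, an epithelial protein that holds cyclin B1 and CDK1 in the cytoplasm and is abundant in differentiating keratinocytes. It is the shortest of the 10 genes, at chr4:133600556-133602168 on the minus strand, and was flanked by high peaks of both factors. A KLF4 peak of score 217, 12.8-fold over input, was centred 170 bp downstream of the start, with no HDAC3 peak. It stood only 4.02 times over the surrounding 10 kb, where the caller required 4 times. An HDAC3 peak of score 100 and a KLF4 peak of score 278 were centred 23 bp apart, 1784 and 1761 bp beyond the 3′ end. These exceed 98.6% of all HDAC3 and 97.1% of all KLF4 peaks.

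More shared sites lay just outside the rule on both sides of Sfn, whose neighbours are close. An HDAC3 peak of score 136 and a KLF4 peak of score 353, 17 bp apart, lay 3361 and 3378 bp from Sfn but nearer to Zdhhc18. On the other side, HDAC3 and KLF4 peaks of scores 99 and 145, 13 bp apart, were nearer to Gpn2. No peak of either factor touched the 300 bases around the Sfn start.

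Sesn2 encodes sestrin 2, which restrains mTORC1 and limits oxidative damage under stress, and it was the only gene of the set with HDAC3 at its start. The gene lies at chr4:132492804-132510456 on the minus strand. An HDAC3 peak of score 97, 8.53-fold over input, was centred 249 bp upstream of the start, and 98.4% of all HDAC3 peaks scored lower. A KLF4 peak of score 152, 11.4-fold over input, lay 29 bp from it, 278 bp upstream of the start. The input had 7 tags (interval 2.81 to 14.4) in the HDAC3 peak and 6 in the KLF4 peak. Of the remaining peaks, an HDAC3 peak of score 23 lay 3955 bp beyond the 3′ end, and a KLF4 peak of score 85 lay 3278 bp upstream.

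The promoter of Sesn2 is shown because it held the one shared site at a start of these genes. The 300 bases are from RefSeq, GRCm38.p6, chr4:132510407-132510706, minus strand, and the 94 capitals are the bases under the HDAC3 peak, whose other bases lie farther upstream.
Sesn2 promoter: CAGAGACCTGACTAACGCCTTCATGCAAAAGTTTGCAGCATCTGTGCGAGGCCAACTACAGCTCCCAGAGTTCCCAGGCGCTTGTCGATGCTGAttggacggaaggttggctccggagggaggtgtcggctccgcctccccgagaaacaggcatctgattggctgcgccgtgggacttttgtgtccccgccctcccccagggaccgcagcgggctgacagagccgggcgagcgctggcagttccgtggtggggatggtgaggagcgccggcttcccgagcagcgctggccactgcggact

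The KLF4 peak covered the first 65 of these bases. The promoter held a GC box at -65 to -60, outside both peaks, and no KLF box or p53 decamer within these 300 bases. At the 8 genes with an annotated start, an HDAC3 peak within 1 kb of a start was thus found at 1 gene, Sesn2, beside 15.9% of the 17492 genes with a start. A KLF4 peak was found there at 4 (Cdkn1a, Sfn, Sesn2 and Bax), beside 21.3%. At Gadd45a and Ccng1 the gene-end peaks were at the 3′ end.

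**Figure D2:**
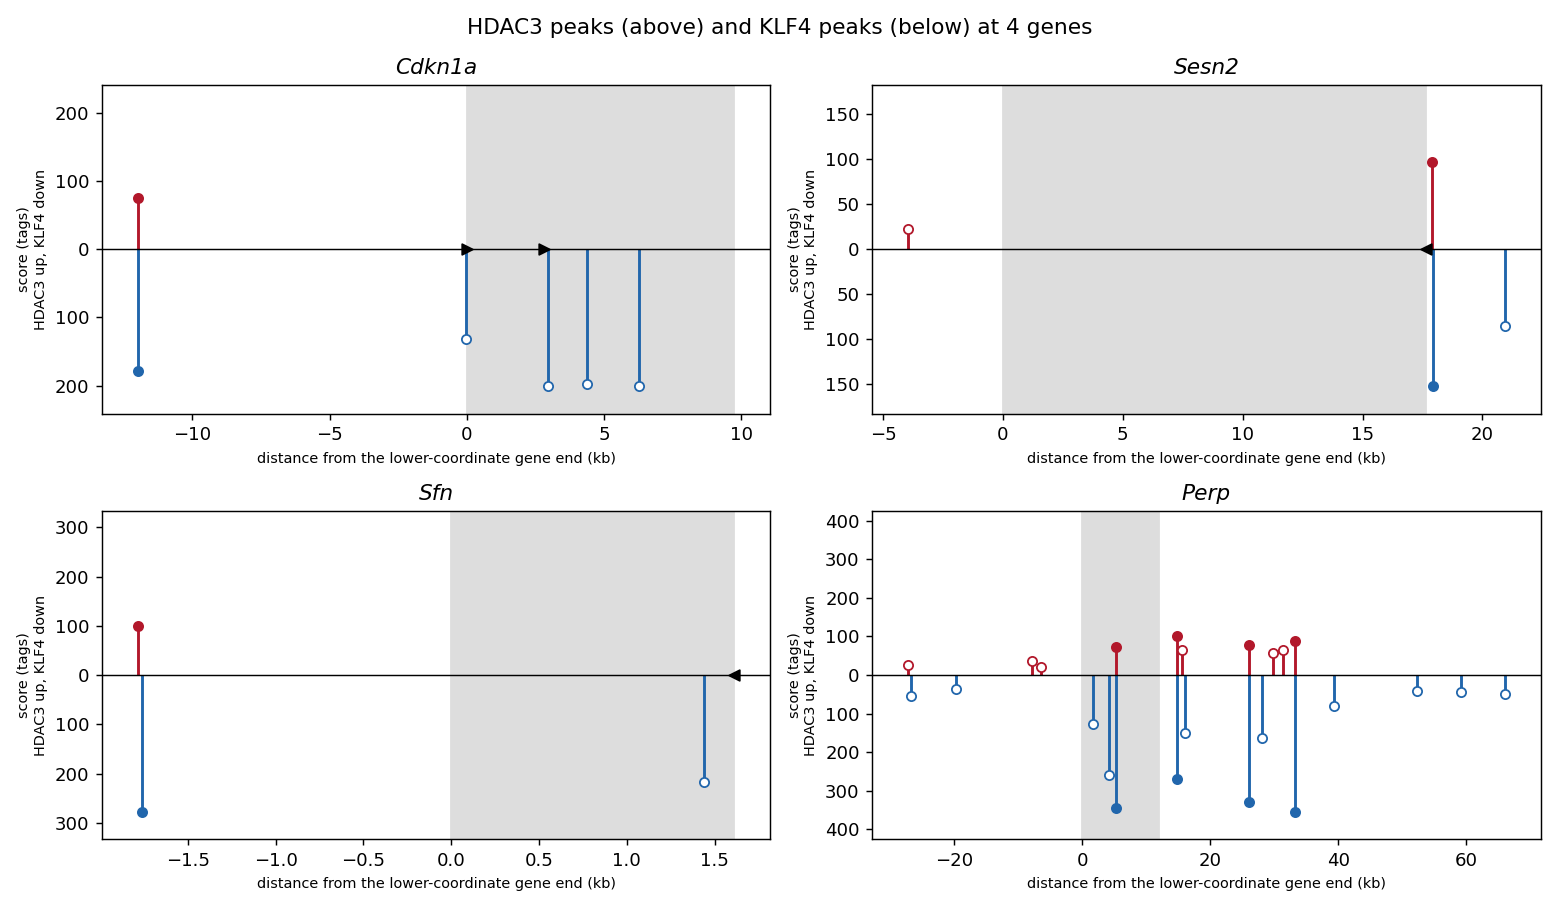
Peaks at Cdkn1a, Sesn2, Sfn and Perp by distance from the lower-coordinate gene end (horizontal axis, kb), with HDAC3 scores in tags drawn up (red) and KLF4 scores in tags drawn down (blue). Filled heads mark overlapping peaks, the grey band is the gene, and black arrowheads are annotated starts pointing in the direction of transcription. Cdkn1a has 4 KLF4 peaks without HDAC3 at and in the gene, Sesn2 a shared pair at its start, and Perp 4 shared pairs, 1 inside the gene and 3 beyond its upper end.

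Mdm2, the ubiquitin ligase that degrades p53 and is itself a p53 target, had 1 low peak of each factor, both inside the gene. It lies at chr10:117688875-117710758 on the minus strand. The HDAC3 peak scored 21, was 7.10-fold over an input of 2 tags, and lay 1112 bp downstream of the annotated start. The KLF4 peak scored 50 and lay 2478 bp downstream, 1366 bp from the HDAC3 peak. Its 43.4-fold excess rests on an input with no tags, which the list writes as 0.5, and 35.8% of all KLF4 peaks scored lower. Both Mdm2 scores were below the medians of their lists.

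Of the apoptosis genes, Bax encodes the pore-forming BCL2 relative that permeabilises mitochondria. The gene lies at chr7:45461695-45466903 on the minus strand and had 1 KLF4 peak and no HDAC3 peak, the nearest HDAC3 peak being 8318 bp away and closer to Dhdh. The KLF4 peak scored 48, lay 494 bp upstream of the start and was 4.25-fold over 5 input tags, just above the limit of 4. A KLF4 peak of score 118 lay 2421 bp beyond the other end but was nearer to Ftl1.

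Bbc3 encodes PUMA, a BH3-only protein that releases BAX and BAK from their inhibitors. It lies at chr7:16308398-16318334 on the plus strand, with 3 annotated starts, and likewise had 1 KLF4 peak and no HDAC3 peak. The KLF4 peak scored 79, 17.2-fold over 2 input tags, and lay inside the gene, 2832 bp downstream of the nearest start. The nearest HDAC3 peak was 13039 bp from the gene. A KLF4 peak of score 34, 2968 bp from the gene, was nearer to Sae1.

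Pmaip1 encodes NOXA, another BH3-only protein, which neutralises MCL1. It had 9 HDAC3 and 12 KLF4 peaks spread over a region poor in protein-coding genes, at chr18:66458604-66465558 and around it. Beside its lower end lay KLF4 peaks of scores 34 and 42, one 394 bp outside the gene and one 686 bp inside. Its one shared site, 7.57 kb beyond the upper end, had its highest peak of each factor, an HDAC3 peak of score 45 and a KLF4 peak of score 101 with centres 20 bp apart. The 8 other HDAC3 peaks scored 16 to 26, with a median of 17, close to the threshold of 16.

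**Figure D3:**
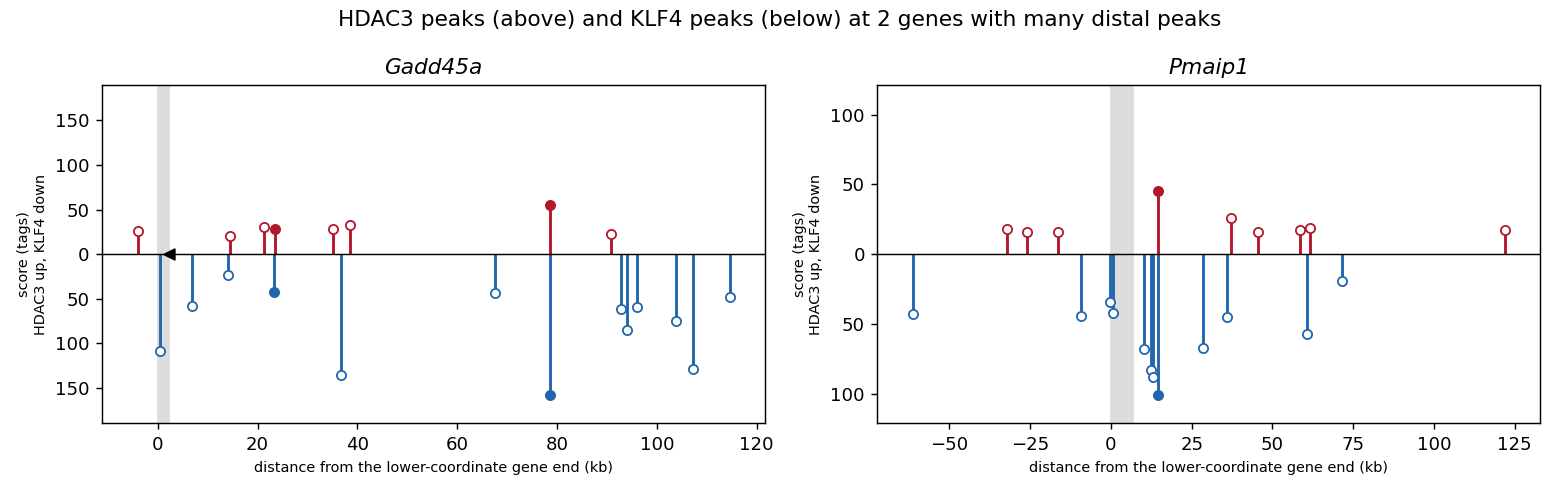
Peaks at Gadd45a and Pmaip1 by distance from the lower-coordinate gene end (horizontal axis, kb), with HDAC3 scores in tags drawn up (red) and KLF4 scores in tags drawn down (blue). Filled heads mark overlapping peaks, the grey band is the gene, and the black arrowhead is the annotated start of Gadd45a. The highest peak of each factor is a shared one at both genes, 76.3 kb from Gadd45a and 7.57 kb from Pmaip1.

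Perp encodes a tetraspan membrane protein of desmosomes that is a p53 target in dying cells and a p63 target in stratified epithelia. It carried the most peaks of the set and the highest KLF4 peak, and its highest HDAC3 score, 100, equalled that of Sfn. The gene lies at chr10:18845071-18857073 and had 10 HDAC3 and 14 KLF4 peaks. Of all protein-coding genes, 6.01% had at least as many HDAC3 peaks and 1.88% at least as many KLF4 peaks. None of the Perp peaks lay within 1 kb of a gene end.

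Perp had 4 shared pairs, more than any other gene of the set. One lay inside the gene, an HDAC3 peak of score 72 and a KLF4 peak of score 344 with centres 25 bp apart. The other HDAC3 peaks of these pairs were centred 2784, 14117 and 21250 bp beyond the upper end. They had scores of 100, 78 and 89, and their KLF4 partners scores of 269, 330 and 355, with centres 14, 11 and 8 bp apart. Each KLF4 peak of the 4 pairs scored above at least 96.8% of the KLF4 list, and each HDAC3 peak above at least 95.5% of the HDAC3 list.

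Near the shared sites of Perp stood peaks of 1 factor. A KLF4 peak of score 259, 25.1-fold over input, lay inside the gene 1149 bp from the nearest HDAC3 peak. HDAC3 peaks of scores 66, 56 and 66 lay 3571, 17786 and 19334 bp beyond the upper end with no overlapping KLF4 peak. The first of them was 422 bp from a KLF4 peak of score 150. The input under these 24 peaks ranged from 0.5 to 13 tags.

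The rest of the p53 pathway was described with lists of genes that contain none of the 10. Among 15 p53 family members and regulators, HDAC3 was found at an end of 7 (46.7%), KLF4 at 4 (26.7%) and both at 2 (13.3%), beside 18.9%, 23.1% and 10.3% of all genes. The larger number for HDAC3 was not tested and depended on the limits. With peaks at least 8-fold over input each factor lay at 2 regulators, beside 6.76% (HDAC3) and 11.0% (KLF4) of all genes. At annotated starts HDAC3 lay at 4 and KLF4 at 3, beside 15.9% and 21.3% of genes with a start. Trp53, which encodes p53, had an HDAC3 peak of score 74, 9.40-fold over input, centred 55 bp upstream of a start, and no KLF4 peak was nearest to it. The checkpoint kinase gene Chek2 had an HDAC3 peak of score 45 at 91 bp upstream of a start.

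Other regulators had lower HDAC3 peaks or KLF4. Rchy1, which encodes the p53 ubiquitin ligase PIRH2, had an HDAC3 peak of score 28. Cdkn2a, which encodes ARF, the inhibitor of MDM2, had HDAC3 at score 27 and KLF4 at score 152, both more than 8 kb from the nearest annotated start. Zmiz1, which encodes a coactivator of p53, had a KLF4 peak of score 72.

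Among 38 further p53 targets, HDAC3 lay at an end of 11 (28.9%), KLF4 at 12 (31.6%) and both at 5 (13.2%). The DNA repair gene Xpc had an HDAC3 score of 77 and a KLF4 score of 106. Ckap2, a spindle gene, had scores of 35 and 88, and the ribosomal protein gene Rps27l had 32 and 37. The polo-like kinase gene Plk3 had KLF4 alone at its end, at score 120.

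Among 27 structural relatives of the 10 genes, of which Sesn1 also counts as a further target, HDAC3 lay at an end of 6 (22.2%), KLF4 at 10 (37.0%) and both at 4 (14.8%). Gadd45b and Gadd45g differed in values from Gadd45a, with HDAC3 peaks of scores 71 and 53 centred 44 and 134 bp downstream of a start and no KLF4 peak at the gene ends. The BH3-only genes Bmf (80 for HDAC3, 141 for KLF4) and Bad (68 and 141) carried both factors at a gene end. The relatives Bik, Hrk and Bcl2l11 had neither, like Bbc3 of the 10 genes and Bid of the further targets. Pmaip1, also BH3-only, had KLF4 alone at an end. Emp1, a tetraspan relative of Perp, had both factors within 1 kb of its start, at 52 and 108.

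**Figure D4:**
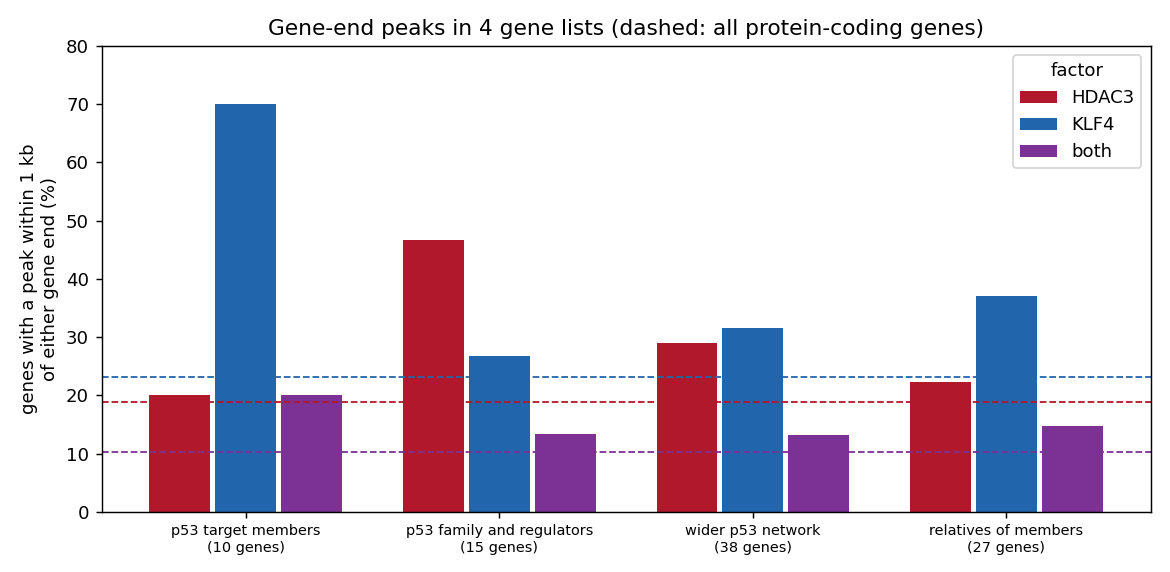
Share of genes (vertical axis, percent, from 0) with a peak within 1 kb of either gene end, for the 10 p53 targets and 3 related lists, with HDAC3 in red, KLF4 in blue and both in purple. Dashed lines give the shares of all protein-coding genes, 18.9%, 23.1% and 10.3%. The highest KLF4 bar is that of the 10 targets (70%), and the highest HDAC3 bar is that of the p53 family and regulators (46.7%).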

How the data were processed

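Peak lists of 1 HDAC3 and 1 KLF4 precipitation were analysed. Per the labels' protocols, fixed epidermis was sonicated before precipitation. The tools were bcl2fastq, STAR and HOMER and the build GRCm38.p5, per the submitters' processing notes (versions: not given in the sources used here). HOMER peaks of 185 bp were called separately for each precipitation against the same input, at 4-fold over input and over the surrounding 10 kb, with a p-value limit of 0.0001 over input and a false discovery rate of 0.001, per the file headers. The deposited tag signal is normalised by the authors to 10000000 tags or scaled to the input. The authors' score is the caller's own tag-based value, and the fold values are ratios by the authors' caller. The deposited focus ratio (a fraction) and p-values were read but not used in a test. An input of 0 is written as 0.5.

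Peaks were placed on a RefSeq gene table of GRCm38.p6 with Python 3.11.15 and pandas 2.3.3; patch releases keep chromosome coordinates. Peaks on chromosomes, 57920 for HDAC3 and 47140 for KLF4, entered shares and medians of the whole lists. Centres at most 184 bp apart made peaks overlapping. The table has no strand, so a gene end is either end; starts and strands came from RefSeq promoters. Intervals are Clopper-Pearson for shares and Poisson for input tags. All 10 genes are described, and from each pathway list up to 5 genes with the highest gene-end scores; 1 of these is not reported here. Genes and lists were chosen with earlier results of these data known. Gene-end windows, assignment, overlap, score and fold limits were varied. Assignment, the gene-end window and the nearest peak of the other list were tested on simulated peaks.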

Additional observations from a re-analysis of the deposited data

How the results depend on the processing

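No paired analysis was possible because each antibody had 1 library and no test was made. Of 60 alternatives, 23 stayed within 1.5 times the count reported or within its interval, and 37 did not. Fewer or more peaks and genes enter by the construction of each setting.

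With a window of 0.5 kb, 1 target gene had HDAC3 and 1 had both factors, beside 11.8% and 6.35% of all genes, and KLF4 (15.8% of all genes) lay at 2 regulators. With 5 kb, HDAC3 lay at 6 targets and both at 6, beside 46.2% and 30.7% of all genes, and HDAC3 lay at 24 and KLF4 at 25 further targets and KLF4 at 9 regulators. KLF4 then lay at 10 targets, beside 46.0%. With annotated starts alone, HDAC3 lay at 1 target and KLF4 at 4, beside 15.9% and 21.3% of genes with a start. Both lay at 1 target, and HDAC3 lay at 7 further targets and 4 regulators. With any nearest peak, 8 targets had HDAC3 and 8 both, beside 64.8% and 49.8% of all genes (KLF4 59.2%), 31 further targets had HDAC3 and 26 KLF4, and 13 regulators had each.

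With the higher-scored 50% of each list, KLF4 lay at 4 targets and both factors at 1, beside 13.3% and 6.69% of all genes. The targets held 24 HDAC3 and 30 KLF4 peaks. HDAC3 (14.3% of all genes) lay at 7 further targets and 4 regulators, and KLF4 at 6 further targets and 2 regulators. With peaks at least 8-fold over input, KLF4 lay at 5 targets and both factors at 1, beside 11.0% and 2.86% of all genes. The targets then held 19 HDAC3 and 31 KLF4 peaks. HDAC3 (6.76% of all genes) lay at 5 further targets and 2 regulators, and KLF4 at 4 further targets and 2 regulators. With the nearest end among all annotated genes, noncoding ones included, the targets held 16 HDAC3 and 34 KLF4 peaks, and 56.2% of those HDAC3 peaks overlapped KLF4.

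Input tags under the peaks ranged from 0.5 to 13 for HDAC3 and from 0.5 to 15 for KLF4, so the fold over input of a single peak is imprecise. A site missing from a list was below the caller's limits at this depth.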

Other observations

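A few genes of the pathway lists, picked out after their values were seen, had many peaks around them. Trp63, which encodes p63, had 19 HDAC3 and 15 KLF4 peaks nearest to it, with highest scores of 73 and 204, and no peak within 1 kb of a gene end. Zmiz1 had 23 HDAC3 and 41 KLF4 peaks, with highest scores of 101 and 401. Gadd45g had 22 HDAC3 and 27 KLF4 peaks, with highest scores of 88 and 291, more than the 8 and 13 of Gadd45a. These numbers were not scaled to the length of chromosome nearest to each gene.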
